A study of Irpex lacteus with 9 samples.

Results

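NH4Cl replicate 3 and NaNO3 replicate 1 are 2 of 9 libraries of polyadenylated RNA from *Irpex lacteus*, a white-rot fungus fermenting wheat straw. These 2 libraries were chosen by their own transcripts: class II peroxidases were low in them and cellulases were high. Each was set against the other 2 libraries of its treatment, called its mates here, so 6 libraries were compared. The straw received ammonium chloride (NH4Cl, 3 libraries) or sodium nitrate (NaNO3, 3 libraries) as inorganic nitrogen, and the 3 remaining libraries, shown for reference, received distilled water. Doses, times and a strain name are not given in the sources used here, and it is not stated whether replicates came from separate fermentations. The protocol describes extraction routes for plant and for animal material without naming the one used, and the design text names *Tricholoma album* whereas the series title and organism give *Irpex lacteus*, which was followed.

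White-rot fungi open the plant cell wall with secreted enzymes of several kinds. Class II peroxidases (manganese, lignin and versatile peroxidases) oxidise lignin with hydrogen peroxide, which other secreted oxidases supply. Cellulases, lytic polysaccharide monooxygenases and cellobiose dehydrogenase attack cellulose, beta-glucosidases split the released cellobiose into glucose, and hemicellulases and pectinases cut the polysaccharides around the cellulose fibres.

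Total counts ran from 17896230 to 23194078 per library. TMM scaling factors, which correct for differing RNA make-up, were 1.08 in NH4Cl replicate 3 and 1.19 in NaNO3 replicate 1, and 0.917 to 1.00 in the other 7 libraries. Across the 14808 tested genes the log2 level of NH4Cl replicate 3 correlated with its mates at 0.936 and 0.946, where the mates correlated with each other at 0.969. For NaNO3 replicate 1 these values were 0.923 and 0.936, against 0.973 between its mates. These are correlations across genes, which are not independent replicates. In RNA from a whole culture, fewer cells of a type and less RNA per cell cannot be told apart. The wheat photosynthesis list and the list of mitochondrially encoded genes matched 0 genes in the table, so neither straw RNA nor mitochondrial RNA was measured through them.

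The values that chose the libraries are given here as a description. The 16 class II peroxidase genes took 2.54% of all counts in NH4Cl replicate 3, against 6.88% and 5.80% in its mates. In NaNO3 replicate 1 they took 0.888%, against 6.63% and 5.93% in its mates, and water libraries held 4.54% to 6.14%. The 21 cellulase genes took 0.771% in NH4Cl replicate 3 against 0.0148% and 0.0203%. Their share was 0.142% in NaNO3 replicate 1 against 0.0216% and 0.0787%, with 0.0167% to 0.0724% in water. So the nearest library outside the pair stood at 4.54% for peroxidases (water replicate 3) and at 0.0787% for cellulases (NaNO3 replicate 3). The 20 monooxygenase and cellobiose dehydrogenase genes took 0.765% in NH4Cl replicate 3 against 0.0135% and 0.0245% in its mates. Their share in NaNO3 replicate 1 was 0.362%, against 0.0244% and 0.158%. Wilson 95% intervals of these shares and of those below reach at most 0.015 percentage points to each side and cover counting error only.

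Whether NaNO3 replicate 1 carried the cellulose label depended on which mate it was set against. A gene is called shifted in a library when its log2 level in CPM (counts scaled to a common library size) lies at least 1 beyond both mates, and shifted alike when this holds in the same direction in both libraries. The distance to the nearer mate is its margin. Of 16 tested cellulases, 14 were shifted higher in NH4Cl replicate 3 and 3 in NaNO3 replicate 1. Without NaNO3 replicate 3 as a mate the number in NaNO3 replicate 1 was 12, and 11 were alike higher. Exoglucanase 1 (BC629DRAFT_1581701), a cellobiohydrolase, stood at 2443 CPM in NH4Cl replicate 3 against 19.0 and 33.5 CPM in its mates. The same gene stood at 12.8 CPM in NaNO3 replicate 1, within the 11.4 and 23.7 CPM of its mates. A further Exoglucanase 1 gene (BC629DRAFT_1582264) was at 2361 CPM in NH4Cl replicate 3 against 18.1 and 42.0 CPM. In NaNO3 replicate 1 it was 571 CPM against 74.8 CPM in replicate 2 and 431 CPM in replicate 3, so NaNO3 replicate 3 lay nearer to replicate 1 than to its own mate. Monooxygenases were shared more widely, with 17 of 20 shifted higher in NH4Cl replicate 3 and 9 in NaNO3 replicate 1, all 9 of them in both, and 15 in both without NaNO3 replicate 3. One of these (BC629DRAFT_285345) stood at 221 CPM against 1.82 and 4.33 CPM, and at 134 CPM against 4.56 and 22.4 CPM.

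The peroxidases were not uniformly low either. Of 15 tested, 6 were shifted lower in both libraries. The versatile peroxidase VPL1 (BC629DRAFT_1293608) stood at 216 CPM in NH4Cl replicate 3 against 2128 and 1835 CPM. It stood at 18.7 CPM in NaNO3 replicate 1 against 2567 and 1362 CPM. By contrast, 3 peroxidases were shifted higher in NH4Cl replicate 3, among them a versatile peroxidase VPS1 (BC629DRAFT_1291806) at 1231 CPM against 219 and 277 CPM. In NaNO3 replicate 1 that gene stood at 204 CPM against 234 and 587 CPM. A manganese peroxidase 3 gene (BC629DRAFT_1591871) stood at 717 CPM in NH4Cl replicate 3 against 117 and 103 CPM, and at 1553 CPM in NaNO3 replicate 1 against 511 and 1689 CPM. In NH4Cl replicate 3 the low summed share of the peroxidases therefore hid a few members that stood high. In NaNO3 replicate 1, 0 of the 15 were shifted higher and 9 lower, against 5.33% and 6.83% of all tested genes.

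Outside the lists that chose them, the 2 libraries had many shifts in common. In all, 221 of 14808 tested genes were shifted higher in both (1.49%) and 278 lower in both (1.88%). These include 12 genes higher and 6 lower that belong to the choosing lists. NH4Cl replicate 3 had 598 genes shifted higher (4.04%) and 521 lower (3.52%). NaNO3 replicate 1 had 790 shifted higher (5.33%) and 1011 lower (6.83%). The alike genes were thus 37.0% of the higher and 53.4% of the lower genes of NH4Cl replicate 3, and 28% and 27.5% of those of NaNO3 replicate 1. Only 21 genes were shifted in opposite directions (0.142%). Across the 14757 tested genes outside the choosing lists, the differences of both libraries from the means of their mates correlated at r = 0.45 (Pearson) and 0.45 (Spearman). The median difference over all tested genes was 0.01 in NH4Cl replicate 3 and 0.02 in NaNO3 replicate 1 on the log2 scale.

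These counts follow the choice of scaling and of mates. On the deposited FPKM values, whose median difference is 0.14 in NH4Cl replicate 3 and 0.27 in NaNO3 replicate 1, 269 genes were alike higher and 171 alike lower, so the higher genes were then the majority. On FPKM, NH4Cl replicate 3 had 581 genes higher and 269 lower, and NaNO3 replicate 1 had 956 and 538. Set against 1 mate in place of both, NH4Cl replicate 3 had 963 genes higher without NH4Cl replicate 1, and 1047 higher and 1132 lower without NH4Cl replicate 2. NaNO3 replicate 1 had 1231 higher without NaNO3 replicate 2 and 1432 higher without NaNO3 replicate 3. The opposite genes then numbered 45 to 66, the lowest without NaNO3 replicate 3 and the highest without NH4Cl replicate 2.

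**Figure D1:**
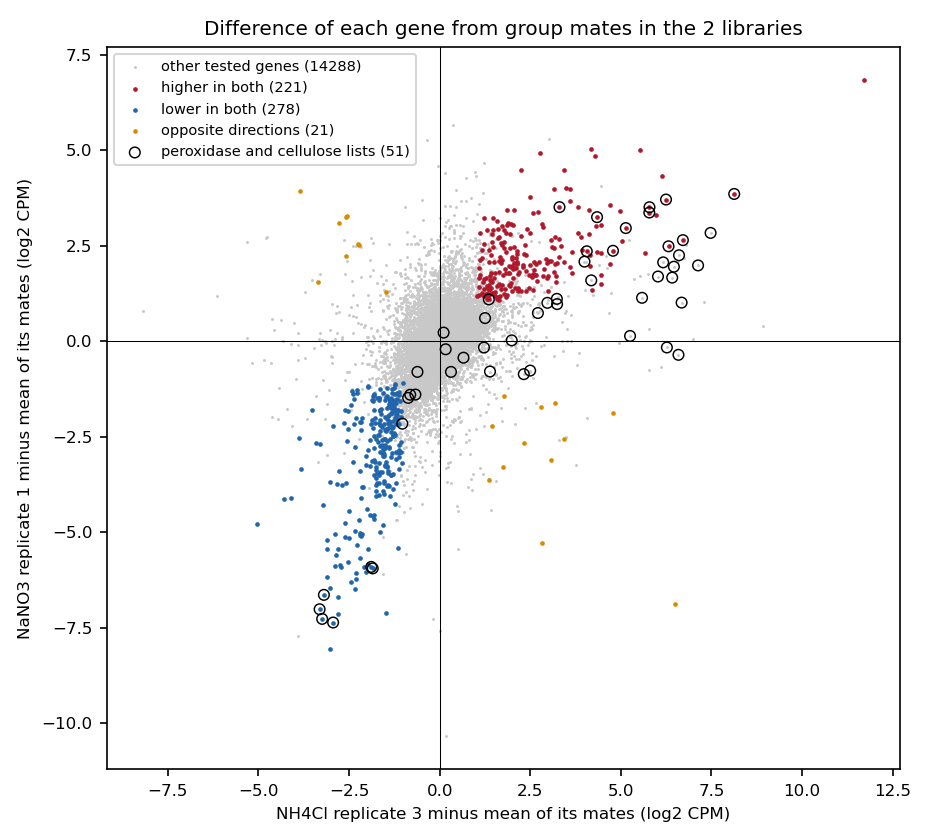
Each point is 1 of 14808 tested genes, placed by its log2 CPM difference from the mean of its mates in NH4Cl replicate 3 (horizontal) and in NaNO3 replicate 1 (vertical). Red points are the 221 genes shifted higher in both, blue the 278 lower in both, orange the 21 in opposite directions, and rings mark tested genes of the lists that chose the libraries.

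The alike genes outside the choosing lists held from 0.550% to 12.5% of counts, by set and library. The 209 alike-higher genes outside the choosing lists took 3.18% of counts in NH4Cl replicate 3 against 0.550% and 0.734% in its mates. In NaNO3 replicate 1 they took 9.63%, against 0.856% and 1.46%. The 272 alike-lower genes took 3.65% in NH4Cl replicate 3 against 11.8% and 11.2%, and 1.53% in NaNO3 replicate 1 against 12.5% and 10.6%. In water libraries the first set took 0.787% to 0.961% and the second 9.97% to 10.6%, so water libraries lay near the mates. These genes were selected on the same values, and their shares are a description. Of the alike genes, 125 higher and 176 lower have no named product in the deposited annotation. Product names in that annotation are those of the best-matching known protein, and the roles given here are those of the named proteins.

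Enzymes of the last steps of cellulose and hemicellulose breakdown were well represented among the alike-higher genes. Of 12 tested beta-glucosidases, 5 were shifted higher in both libraries (41.7%, against 1.49% of all tested genes) and 0 lower. Their median differences were 0.86 in NH4Cl replicate 3 and 0.80 in NaNO3 replicate 1. Beta-glucosidase 1B (BC629DRAFT_364879), of the glycoside hydrolase family 1, stood at 1321 CPM in NH4Cl replicate 3 against 23.8 and 34.3 CPM in its mates. It stood at 4270.3 CPM in NaNO3 replicate 1 against 39.6 CPM in replicate 2 and 450.1 CPM in replicate 3, and at 33.4 to 111 CPM in water. Its log2 differences of 5.53 and 5.00 were the widest of the 12 higher genes named by margin, and both libraries exceeded all other 7. A family 3 enzyme, probable beta-glucosidase I (BC629DRAFT_1582990), stood at 176 CPM in NH4Cl replicate 3 against 18 and 45.4 CPM, and at 84.0 CPM in NaNO3 replicate 1 against 14.6 and 27.1 CPM. One water library held 75.3 CPM of it, so the lead of NaNO3 replicate 1 over water was small.

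Among hemicellulases and pectinases, 11 of 43 tested were shifted higher in both libraries (25.6%) and 1 lower in both (2.33%). Over all tested genes these shares were 1.49% and 1.88%. NH4Cl replicate 3 had 26 of the 43 shifted higher (4.04% of all tested genes) and NaNO3 replicate 1 had 11 (5.33% of all). The median differences were 2.09 and 0.72. Without NaNO3 replicate 3 as a mate, 20 were higher in NaNO3 replicate 1 and 20 in both. Over all 14808 tested genes these numbers were then 1432 and 326. A mannan endo-1,4-beta-mannosidase A (BC629DRAFT_1588802), which cuts the mannan backbone, stood at 51.3 CPM in NH4Cl replicate 3 against 1.88 and 3.30 CPM. Its level in NaNO3 replicate 1 was 40.5 CPM against 2.82 and 8.42 CPM, and water libraries held 3.18 to 3.75 CPM. Both libraries stood above all others for this gene. Pectinesterase (BC629DRAFT_1539744), which removes methyl groups from pectin, stood at 392 CPM against 16.5 and 19.1 CPM, and at 103 CPM against 12 and 35.7 CPM. The alpha-L-arabinofuranosidase A pair (BC629DRAFT_1587240 and NewGene_3352), which trims arabinose side chains, kept a ratio of 1.36 to 2.17 over the 9 libraries and may share reads. The first of them stood at 337 CPM against 29.0 and 37.7 CPM, and at 211 CPM against 21.5 and 65.6 CPM. Of the proteins with a fungal cellulose-binding domain outside the choosing lists, 2 of 3 were alike higher, and the acetylesterase among them (BC629DRAFT_1278024) stood at 107 CPM against 1.53 and 1.71 CPM, and at 26.3 CPM against 0.788 and 7.92 CPM. The other, mannosidase F (NewGene_1099), was a low transcript at 7.01 CPM against 0 and 0.626 CPM, and 4.19 CPM against 0.451 and 1.94 CPM.

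Not every xylanase followed. One endo-1,4-beta-xylanase A gene (BC629DRAFT_1440609), which cuts the xylan backbone, stood at 38.7 CPM in NH4Cl replicate 3 against 364 and 219 CPM. In NaNO3 replicate 1 it stood at 2.59 CPM against 209 and 81.0 CPM, lower than in any other library, with 97.7 to 203 CPM in water. Another gene with the same product name (BC629DRAFT_1517890) stood on the other side, at 36.7 CPM against 5.11 and 2.79 CPM, and at 10.3 CPM against 1.58 and 3.64 CPM.

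Of 24 tested sugar transporters, 3 were shifted higher in both (12.5%) and 0 lower, and on FPKM 5 were higher in both. Of all tested genes, 1.49% were alike higher. NH4Cl replicate 3 had 4 shifted higher (4.04% of all tested genes) and NaNO3 replicate 1 had 8 (5.33% of all). The median differences were 0.20 and 0.85. A lactose permease (BC629DRAFT_236480), a sugar importer, stood at 285 CPM against 16.4 and 16.3 CPM in the mates of NH4Cl replicate 3. It stood at 429.9 CPM in NaNO3 replicate 1 against 26.7 CPM in replicate 2 and 141 CPM in replicate 3. A further lactose permease (BC629DRAFT_1292709) stood at 312 CPM against 126 and 110.4 CPM, and at 444 CPM against 116 and 156 CPM. NaNO3 replicate 3 again lay between replicate 1 and replicate 2 for both. Some glucose transporters stood high in NaNO3 replicate 1 while NH4Cl replicate 3 lay close to its mates: the low-affinity glucose transporter (BC629DRAFT_1594574) was at 554 CPM against 38.1 and 58.5 CPM, and at 42.1 CPM against 31.0 and 38.6 CPM in the NH4Cl libraries. Glycolysis and gluconeogenesis as a list did not stand out, with 1 of 64 tested genes alike higher and 1 alike lower (1.56% each, near the shares over all tested genes). Its alike-higher gene, glucokinase (NewGene_3542), which phosphorylates glucose, stood at 106 CPM against 38.8 and 47.7 CPM, and at 368 CPM against 161 and 153 CPM.

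Of 5 tested genes of trehalose synthesis and breakdown, 3 were shifted higher in both (60%), all 3 of them for synthesis. This list was added after values were seen, so its count is a description only. Of all tested genes, 1.49% were alike higher. Trehalose-phosphate synthase (BC629DRAFT_1522544), the first step, stood at 376 CPM in NH4Cl replicate 3 against 80.9 and 111 CPM. NaNO3 replicate 1 held 1594 CPM of it against 366 and 352 CPM, and water libraries held 276 to 337 CPM. Trehalose-phosphatase (BC629DRAFT_1715247), the second step, stood at 51.4 CPM against 8.64 and 10.8 CPM, and at 363 CPM against 49.3 and 45.8 CPM. For both genes the NH4Cl mates lay below all water libraries, and NH4Cl replicate 3 stood only slightly above the highest other library, by 0.04 for the synthase and 0.06 for the phosphatase on the log2 scale. The degrading enzymes stayed closer to their mates: neutral trehalase (BC629DRAFT_1440684) had 22 CPM against 12.7 and 19.5 CPM, and 21.7 CPM against 19.9 and 19.5 CPM. No list of glycogen genes was counted, and a pair of them is given here because of their values. Glycogen phosphorylase (BC629DRAFT_1287858), which releases glucose from glycogen, stood at 1392 CPM against 420.3 and 578 CPM, and at 2832 CPM against 569 and 780.3 CPM. The glycogen branching enzyme (NewGene_2947), on the synthesis side, stood at 73.4 CPM against 26 and 21.4 CPM, and at 196 CPM against 97.5 and 87.4 CPM.

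There were 97 KEGG pathways with at least 15 tested genes outside the choosing lists. Ranked by alike-higher share, pentose and glucuronate interconversions came first, at 9 of 50 genes (18%, against 1.49% of all tested genes). In this pathway 0 were alike lower, against 1.88% of all tested genes. Cyanoamino acid metabolism (5 of 32, 15.6%) and starch and sucrose metabolism (12 of 82, 14.6%) came next. The 5 genes of cyanoamino acid metabolism are the beta-glucosidases, which the starch and sucrose pathway also holds. D-xylose 1-dehydrogenase (BC629DRAFT_1462006), which oxidises xylose, stood at 567 CPM against 138 and 279.7 CPM, and at 1051 CPM against 508 and 418 CPM. D-arabinitol dehydrogenase 1, an enzyme that interconverts a pentitol and a ketopentose, is the name of 3 of these genes. The one with the most counts (BC629DRAFT_1290563) stood at 92.3 CPM against 19.8 and 30.0 CPM, and at 261 CPM against 70.5 and 63.6 CPM. The other two (BC629DRAFT_1716779 and BC629DRAFT_1738839) kept a ratio of 1.52 to 2.11 to each other over the 9 libraries. BC629DRAFT_1290563 kept one of 4.39 to 6.23 to the first of them and of 2.53 to 3.20 to the second, so all 3 may share reads. A pair of notP'-type short chain dehydrogenases in the pathway (BC629DRAFT_981153 and NewGene_1552) kept a ratio of 3.53 to 5.79, so the 9 genes may not be 9 separate results.

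**Figure D2:**
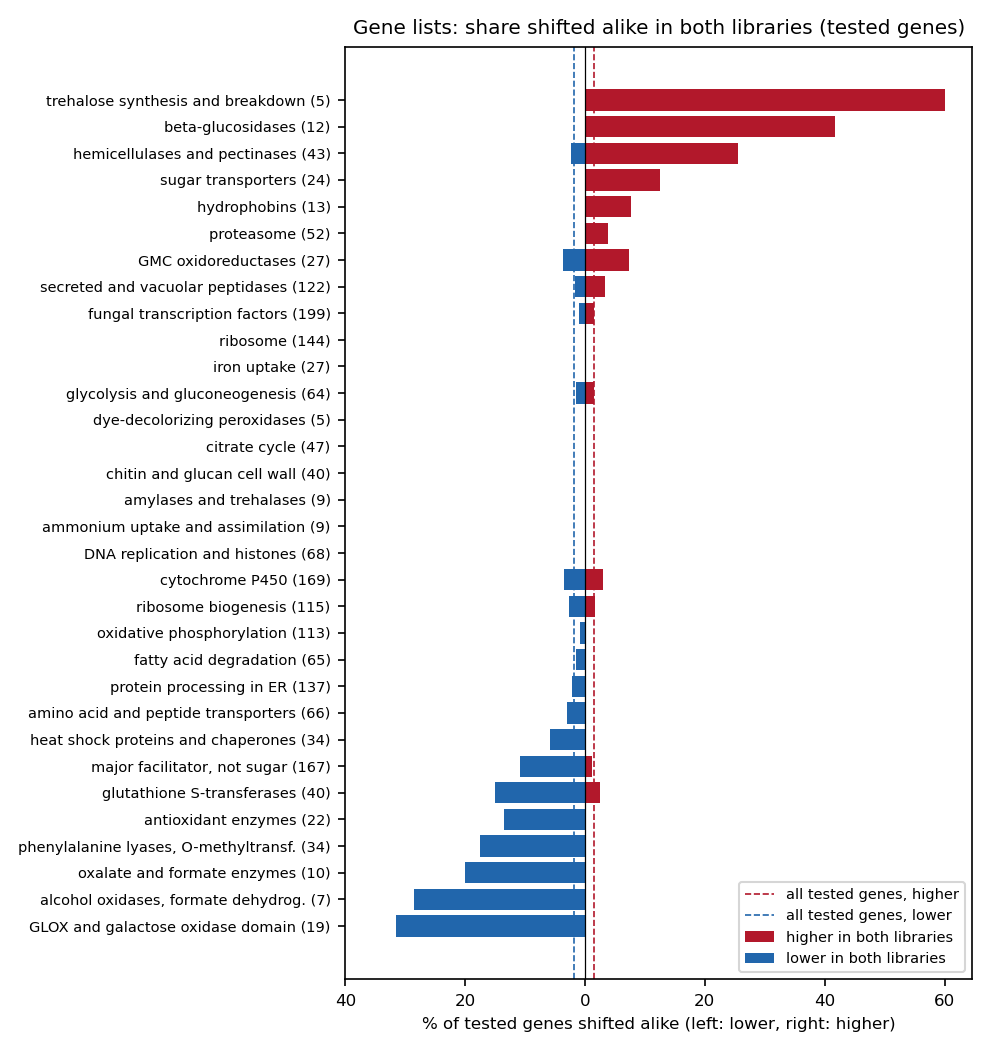
Bars give the percentage of tested genes of each list (number in brackets) outside those that chose the libraries and with at least 5 tested genes, shifted higher in both libraries (right, red) or lower in both (left, blue). Dashed lines mark the same over all tested genes, 1.49% higher and 1.88% lower. Trehalose genes, beta-glucosidases and hemicellulases reach farthest to the right of the lists drawn, and the GLOX and galactose oxidase list farthest to the left. The trehalose, alcohol oxidase and phenylalanine ammonia-lyase lists were added after values were seen.

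Several alike-higher genes with many counts have no tie to polysaccharides by name. Aldo-keto reductase (BC629DRAFT_1280587), of a family that reduces aldehydes and ketones, stood at 5048 CPM in NH4Cl replicate 3 against 1109.6 and 1356 CPM. It stood at 16394 CPM in NaNO3 replicate 1 against 994 and 2313 CPM, the most counts of any alike-higher gene, and at 559.9 to 1269 CPM in water. A GMC oxidoreductase (BC629DRAFT_1592555), a flavin-dependent alcohol or sugar oxidase by family, stood at 116 CPM against 21.4 and 27.2 CPM, and at 1410.1 CPM against 38.8 and 102 CPM. This gene differed far more in NaNO3 replicate 1 (log2 4.48) than in NH4Cl replicate 3 (2.26). A gene without a named product (BC629DRAFT_744880) stood at 1472 CPM against 47.5 and 141 CPM, and at 11297 CPM against 223 and 523 CPM.

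Cytochrome P450 genes, which hydroxylate many small molecules, had 5 of 169 tested members alike higher (2.96%) and 6 alike lower (3.55%), against 1.49% and 1.88% of all tested genes. Without NH4Cl replicate 2 as a mate, 14 were alike lower, where 401 of 14808 tested genes were. Monooxygenase ARMGADRAFT_974139 (BC629DRAFT_1280227) stood at 111 CPM against 14.4 and 18.3 CPM, and at 961 CPM against 15.6 and 62.8 CPM. A COX2-type monooxygenase (BC629DRAFT_773557) stood at 141 CPM against 28.6 and 26.2 CPM, and at 167 CPM against 20.2 and 40.9 CPM. On the lower side, the ALT8-type gene (BC629DRAFT_1587072) stood at 87.9 CPM against 329 and 457 CPM, and at 55.6 CPM against 282 and 176 CPM.

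A pair of N,O-diacetylmuramidases, lysozyme-type enzymes that cleave bacterial cell walls, also stood high. NewGene_580 had 20.5 CPM in NH4Cl replicate 3 against 1.14 and 1.03 CPM, and 30.9 CPM in NaNO3 replicate 1 against 3.10 and 2.44 CPM. BC629DRAFT_1584177 had 29.9 CPM against 3.24 and 7.46 CPM, and 113 CPM against 8.84 and 13.2 CPM. Ribonuclease U2 (BC629DRAFT_1286468), a secreted enzyme that cuts RNA, had 34.7 CPM against 3.81 and 5.81 CPM, and 28.8 CPM against 2.31 and 5.43 CPM. In water these 3 genes stood at 1.46 to 3.80, 9.70 to 12.5 and 2.51 to 7.10 CPM, near the mates. Ketocytochalasin monooxygenase (NewGene_733) was a low transcript, at 6.10 CPM against 0 and 0.456 CPM, and 3.82 CPM against 0 and 0.947 CPM.

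**Figure D3:**
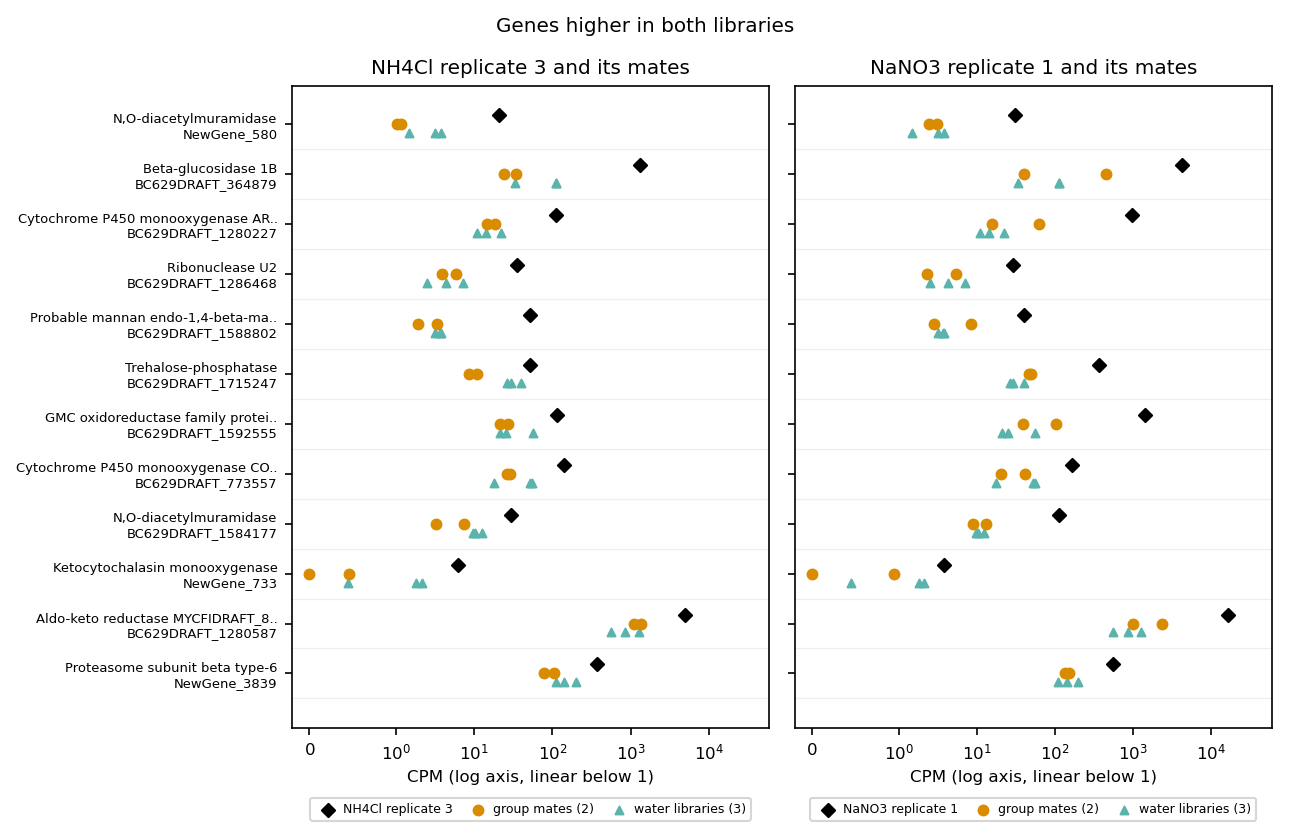
CPM on a log axis (linear below 1) of the 12 alike-higher genes named by margin, with NH4Cl replicate 3 and its mates on the left and NaNO3 replicate 1 and its mates on the right. Black diamonds are the 2 chosen libraries, orange circles their mates and triangles the 3 water libraries; every diamond lies to the right of both circles, and for beta-glucosidase 1B at 1321 and 4270.3 CPM.

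Of 122 tested secreted and vacuolar peptidases, 4 were alike higher (3.28%) and 2 alike lower (1.64%), against 1.49% and 1.88% of all tested genes. Without NH4Cl replicate 2 as a mate, 4 were alike lower, where 401 of 14808 tested genes were. Extracellular metalloproteinase (NewGene_3363) stood at 203 CPM in NH4Cl replicate 3 against 17.3 and 14.6 CPM, and at 469 CPM in NaNO3 replicate 1 against 119.5 and 152 CPM. Here the NH4Cl mates lay below the water libraries (37.4 to 224 CPM), and NH4Cl replicate 3 lay among them. A subtilisin-like protease (BC629DRAFT_1592125) went the other way, at 396 CPM against 1631 and 1161 CPM, and 113 CPM against 1181 and 867 CPM.

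Some of the oxidases that supply hydrogen peroxide were alike lower. Of 19 tested genes with a GLOX or galactose oxidase domain, 6 were shifted lower in both libraries (31.6%) and 0 higher in both. Over all tested genes 1.88% were alike lower and 1.49% alike higher. The list medians of 0 in NH4Cl replicate 3 and -0.36 in NaNO3 replicate 1 were small. Of 27 GMC oxidoreductases, a family that also holds peroxide-producing oxidases, 2 were alike higher (7.41%) and 1 alike lower (3.7%). GLOX (BC629DRAFT_1281703), a copper enzyme that oxidises aldehydes with release of hydrogen peroxide, stood at 490.1 CPM in NH4Cl replicate 3 against 1915 and 2301 CPM. It stood at 60.2 CPM in NaNO3 replicate 1 against 4366 and 3001 CPM, with 2452 to 2978 CPM in water. For GLOX BC629DRAFT_1437174 the values were 523 CPM against 2131 and 2099 CPM, and 93.5 CPM against 2610.3 and 1480.5 CPM. Both chosen libraries stood below all 7 others for these genes. The 6 genes are not sure to be separate results: BC629DRAFT_1281703 and NewGene_3380 stood in a ratio of 1.17 to 1.29 over the 9 libraries, and NewGene_3372 and NewGene_3379 one of 1.13 to 1.25. BC629DRAFT_1437174 kept a ratio of 6.22 to 8.28 to NewGene_3379 and likewise a near-constant one to NewGene_3372, so it belongs to the same group of possible copies. A different GLOX gene (BC629DRAFT_1598350) stood high in NH4Cl replicate 3, at 890.2 CPM against 208 and 265 CPM, and at 28.6 CPM in NaNO3 replicate 1 against 32.9 and 35.6 CPM.

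Enzymes that handle methanol, formaldehyde and formate were among the alike-lower genes with the most counts. Alcohol oxidase 1 (BC629DRAFT_1437735), which oxidises methanol to formaldehyde and releases hydrogen peroxide, stood at 2549 CPM in NH4Cl replicate 3 against 9299 and 6805 CPM. NaNO3 replicate 1 held 1023 CPM of it against 12042 and 9903 CPM, and water libraries held 8035 to 10461 CPM. S-(hydroxymethyl)glutathione dehydrogenase (BC629DRAFT_1584087), which takes the formaldehyde adduct of glutathione on towards formate, stood at 898 CPM against 3351 and 1829 CPM, and at 787 CPM against 3686 and 2786 CPM. On FPKM its smaller margin was -0.89, short of the threshold. Formate dehydrogenase (BC629DRAFT_1522366), which oxidises formate to carbon dioxide, stood at 2057 CPM against 8979 and 7863 CPM, and at 1138 CPM against 8929 and 9346 CPM. In water replicates 2 and 3 it stood at 2357 and 3055 CPM, close to NH4Cl replicate 3. These 3 are the alike-lower genes of the 28 tested under KEGG methane metabolism (10.7%, against 1.88% of all tested genes). On the list of alcohol oxidases and formate dehydrogenases, added after values were seen, 2 of 7 tested were alike lower (28.6%). Other formate dehydrogenase genes were less apart, such as BC629DRAFT_1280122 at 853 CPM against 2854 and 1125 CPM, and at 1440.1 CPM against 3188 and 2569 CPM. Oxalate decarboxylase (BC629DRAFT_1590463), which splits oxalate into formate and carbon dioxide, stood at 55.7 CPM against 534 and 570.1 CPM, and at 4.32 CPM against 35.1 and 22.9 CPM. Its NH4Cl mates were far above the water libraries (22.9 to 49.2 CPM), so NH4Cl replicate 3 stood near water for this gene.

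Phenylalanine metabolism had the highest alike-lower share of the 97 pathways, with 7 of 30 tested genes. This was 23.3%, against 1.88% of all tested genes, and 0 were alike higher, against 1.49%. In *Phanerochaete chrysosporium*, another white-rot fungus, phenylalanine is the precursor of veratryl alcohol, an O-methylated aromatic that serves the peroxidases. Phenylalanine ammonia-lyase (BC629DRAFT_1277266), which turns phenylalanine into cinnamate, stood at 421 CPM in NH4Cl replicate 3 against 2195 and 1653 CPM. It stood at 83.9 CPM in NaNO3 replicate 1 against 3409 and 2428 CPM, with 829 to 1506 CPM in water. An aromatic amino acid aminotransferase (BC629DRAFT_1515451) stood at 120.1 CPM against 384 and 344 CPM, and at 90.6 CPM against 639 and 454 CPM. Both stood below all water libraries too. The rest of the 7 are 3 putative amidases, a CTB9-type hydroxylase and a HOL1-type transporter. All of these carry the same KEGG entry, amidase, so most of the share rests on a single annotation. The set is not a run of steps, and the amidases BC629DRAFT_1286171 and NewGene_1229 kept a ratio of 1.03 to 1.90.

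Of the 34 tested phenylalanine ammonia-lyase, aminotransferase and O-methyltransferase genes, 6 were alike lower (17.6%) and 0 alike higher. Of all tested genes, 1.88% were alike lower. This list was also added after values were seen, so its count is a description only. O-methyltransferases add methyl groups to phenolic hydroxyls. 4-O-methyltransferase 1 (BC629DRAFT_1531666) stood at 25.4 CPM against 119 and 85.2 CPM, and at 5.74 CPM against 368 and 174 CPM. 3-O-methyltransferase 2 (BC629DRAFT_1719749) stood at 618 CPM against 1984 and 1618 CPM, and at 194 CPM against 2863 and 2091 CPM. Water libraries held 305 to 479.8 CPM of the first and 1041 to 1441 CPM of the second, above both chosen libraries. The median differences of the list were small, at -0.28 and -0.08, so most members stood near their mates; on FPKM the median in NaNO3 replicate 1 was 0.09, with the other sign.

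**Figure D4:**
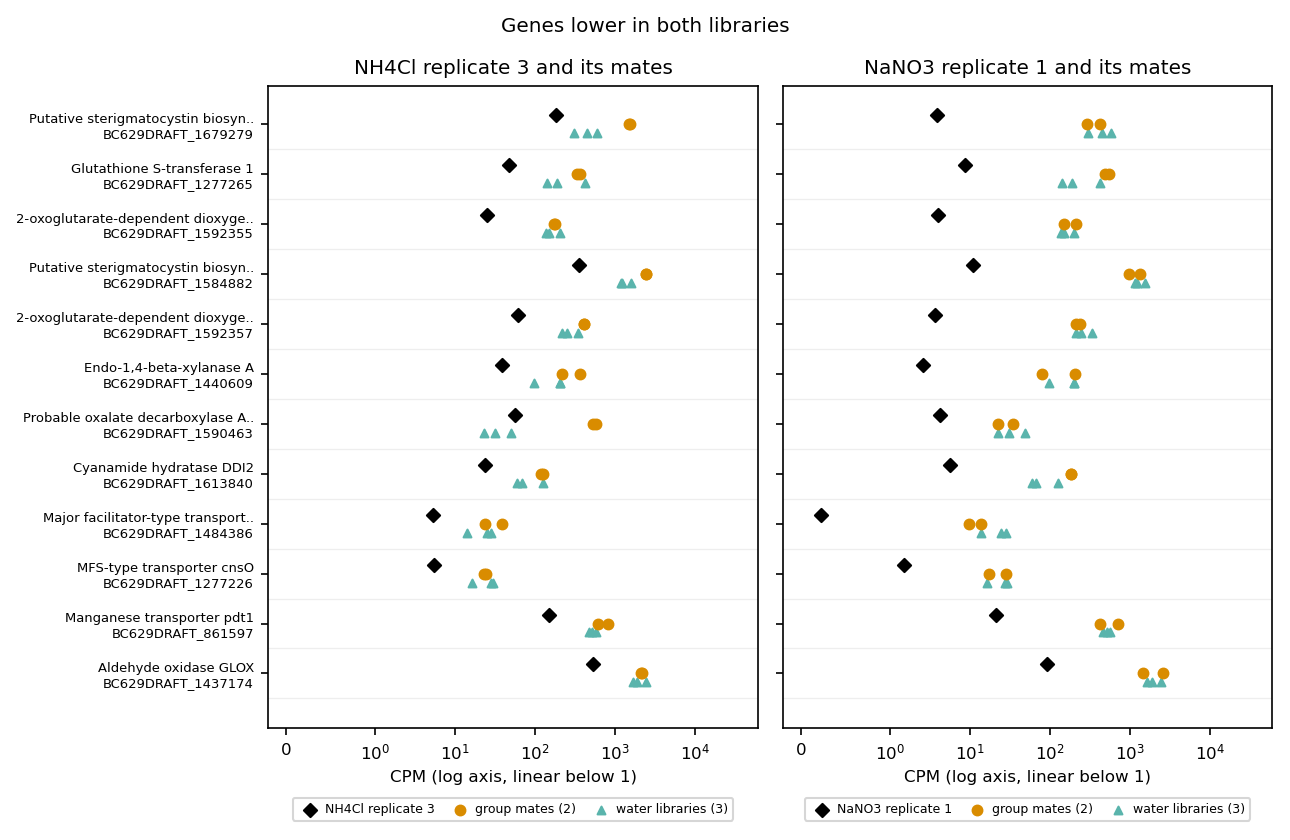
CPM on a log axis (linear below 1) of the 12 alike-lower genes named by margin, with NH4Cl replicate 3 and its mates on the left and NaNO3 replicate 1 and its mates on the right. Black diamonds are the 2 chosen libraries, orange circles their mates and triangles the 3 water libraries; every diamond lies left of both circles, and for oxalate decarboxylase NH4Cl replicate 3 (55.7 CPM) sits near water.

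Of 40 tested glutathione S-transferases, which couple glutathione to reactive compounds, 6 were alike lower (15.0%) and 1 alike higher (2.5%). Over all tested genes these shares were 1.88% and 1.49%. Glutathione S-transferase 1 (BC629DRAFT_1277265) stood at 46.9 CPM in NH4Cl replicate 3 against 328 and 365 CPM. It stood at 8.74 CPM in NaNO3 replicate 1 against 547 and 498 CPM. A member without a named product (NewGene_1230) stood at 7.27 CPM against 23.8 and 24.9 CPM, and at 3.46 CPM against 50.5 and 42.6 CPM. Glutathione S-transferase 2 (BC629DRAFT_435287) showed how unequal the 2 libraries could be: it stood at 821 CPM against 2675 and 1977 CPM, and at 28.9 CPM against 4015 and 3965 CPM. The alike-higher member (BC629DRAFT_1547974) had under 1 CPM in every library. Among 22 tested antioxidant enzymes, 3 were alike lower (13.6%), all 3 named glutathione peroxidase-like HYR1. On FPKM 0 of the 22 were alike lower, and against all 7 other libraries 0 were. The one with the most counts (BC629DRAFT_1600851), which reduces peroxides, stood at 112 CPM against 249 and 296 CPM, and at 85.8 CPM against 306 and 261 CPM. It kept a ratio of 1.81 to 2.14 to BC629DRAFT_1679277, and the pair may share reads; their smaller margins on FPKM were -0.96 and -0.93. The chaperone list (34 tested) had 2 alike lower (5.88%), both HSP90 genes, which kept a ratio of 0.774 to 1.17. NewGene_3902 stood at 40.3 CPM against 162 and 98.1 CPM, and at 26.5 CPM against 105 and 81.0 CPM. Its partner (BC629DRAFT_1529026) stood at 39.7 CPM against 187 and 91.5 CPM, and at 28 CPM against 81.0 and 76.5 CPM.

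Of 167 tested transporters of the major facilitator type outside sugar transport, 18 were alike lower (10.8%) and 2 alike higher (1.2%). Over all tested genes these shares were 1.88% and 1.49%. The rest of the list was not shifted alike. On FPKM 12 were alike lower, and against all 7 other libraries 4 were. The hxnP-type transporter (BC629DRAFT_1484386), named after a gene of the nicotinate cluster of *Aspergillus*, stood at 5.28 CPM against 38.8 and 23.5 CPM, and at 0.228 CPM against 13.9 and 9.82 CPM. A cnsO-type transporter (BC629DRAFT_1277226) stood at 5.44 CPM against 24.3 and 23.2 CPM, and at 1.5 CPM against 28.7 and 17.7 CPM. The one with the most counts, of the HOL1 type (BC629DRAFT_1594872), stood at 1447 CPM against 4051 and 3934 CPM, and at 307 CPM against 3301 and 2741 CPM. It kept a ratio of 3.43 to 3.87 to a further HOL1 gene (BC629DRAFT_1587268), so these are not sure to be separate. Manganese transporter pdt1 (BC629DRAFT_861597), of a family that carries manganese, the metal that manganese peroxidases oxidise, stood at 149 CPM against 803 and 611 CPM. It stood at 21.4 CPM in NaNO3 replicate 1 against 707 and 431 CPM, with 465 to 567 CPM in water, so both libraries lay below all 7 others.

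Among the 12 alike-lower genes named by margin, several carry names from fungal secondary metabolism. A pair of stcW-type monooxygenases, named after a sterigmatocystin synthesis gene of *Aspergillus*, had the widest differences in NaNO3 replicate 1. BC629DRAFT_1679279 stood at 183 CPM in NH4Cl replicate 3 against 1519 and 1488 CPM, and at 3.92 CPM in NaNO3 replicate 1 against 430.3 and 295 CPM. BC629DRAFT_1584882 stood at 349.8 CPM against 2448 and 2396 CPM, and at 10.9 CPM against 1347 and 971 CPM. The log2 differences in NaNO3 replicate 1 were -6.47 and -6.70, against -3.03 and -2.79 in NH4Cl replicate 3. A pair of tropC-type dioxygenases, named after a tropolone synthesis gene of *Talaromyces*, followed. BC629DRAFT_1592355 stood at 24.7 CPM against 176 and 172 CPM, and at 4.05 CPM against 214 and 150.5 CPM. BC629DRAFT_1592357 stood at 61.6 CPM against 404 and 404 CPM, and at 3.69 CPM against 242 and 212 CPM. Both stcW-type genes are also 2 of the 3 alike-lower members of the ribosome biogenesis list (115 tested, 2 alike higher) through their pathway annotation, though their name is of another function. The shares of that list, 2.61% alike lower and 1.74% alike higher, were near the 1.88% and 1.49% of all tested genes. The products of these enzymes in *Irpex lacteus* are not given in the sources used here. Cyanamide hydratase (BC629DRAFT_1613840) stood at 23.8 CPM against 125 and 118 CPM, and at 5.74 CPM against 184 and 183 CPM.

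Ribosome genes lay below their mates in both libraries, by less than the threshold in NH4Cl replicate 3. Of 144 tested, 0 were alike higher and 0 alike lower, against 1.49% and 1.88% of all tested genes. NaNO3 replicate 1 had 76 shifted lower and 0 higher, against 6.83% and 5.33% of all tested genes. NH4Cl replicate 3 had 0 lower and 2 higher, against 3.52% and 4.04%. With any margin above 0, 118 lay below both mates in NaNO3 replicate 1, 114 in NH4Cl replicate 3 and 108 in both, where 3414 of 14808 tested genes lay below in both. The median difference of the list was -1.20 in NaNO3 replicate 1 and -0.33 in NH4Cl replicate 3. The 150 ribosome genes in the table took 2.16% of counts in NaNO3 replicate 1 against 4.43% and 3.72%, and 3.76% in NH4Cl replicate 3 against 4.05% and 4.68%. On FPKM the number shifted lower in NaNO3 replicate 1 was 25, and the medians were -0.86 and -0.16. The 40S protein S12-A (BC629DRAFT_1439438) stood at 249 CPM in NaNO3 replicate 1 against 1191 and 819.7 CPM, and at 815 CPM in NH4Cl replicate 3 against 1176 and 1397 CPM. Of 52 tested proteasome genes, 2 were alike higher (3.85%, against 1.49% of all tested genes). Both are named beta type-6, a subunit of the catalytic core, and their ratio of 1.35 to 2.49 leaves them not sure to be separate. NewGene_3839 stood at 372 CPM against 104 and 77.7 CPM, and at 546 CPM against 136 and 151 CPM. BC629DRAFT_346147 stood at 266 CPM against 76.3 and 55.4 CPM, and at 379 CPM against 93.2 and 109.8 CPM. In NH4Cl replicate 3 these were the 2 members shifted. In NaNO3 replicate 1, 3 were shifted higher and 2 lower, against 5.33% and 6.83% of all tested genes. List medians were 0.06 in NH4Cl replicate 3 and 0.35 in NaNO3 replicate 1. By any margin, 45 of the 52 lay above both mates in NaNO3 replicate 1 and 4 below. Of all 14808 tested genes, 6110 lay above and 5850 below in that library. In NH4Cl replicate 3, 26 of the 52 lay above and 14 below, against 5810 and 5492 of all tested genes.

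Of 9 tested genes of ammonium uptake and assimilation, 4 of nitrate and nitrite use, 47 of the citrate cycle, 27 of iron uptake, 40 of cell wall synthesis and 68 of DNA replication and histones, 0 were alike in either direction; at 1.49% and 1.88% of all tested genes, lists of these sizes would hold few. Ammonium transporter 1 (NewGene_3477) stood at 24.2 CPM in NH4Cl replicate 3 against 19.8 and 22.3 CPM. In NaNO3 replicate 1 it stood at 519 CPM against 392 and 397 CPM, so each library stayed with the level of its own treatment. A nitrate reductase (BC629DRAFT_1283050), the first step of nitrate use, stood at 6.96 CPM against 19.7 and 18.9 CPM, and at 47.3 CPM against 68.7 and 64.9 CPM.

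Single alike members stood in several other lists, where the shares over all tested genes were 1.49% alike higher and 1.88% alike lower. Of 66 tested amino acid and peptide transporters, 2 were alike lower (3.03%). The isp4 gene (BC629DRAFT_1589742), an oligopeptide transporter by family, stood at 11.5 CPM against 53.9 and 58.1 CPM, and at 56.1 CPM against 144 and 129 CPM. NewGene_1207 stood at 16.7 CPM against 47.3 and 47.0 CPM, and at 53.1 CPM against 263 and 167 CPM. For both genes NaNO3 replicate 1 stood near the NH4Cl mates, so it was not below all 7 other libraries. Of 13 hydrophobins, which coat fungal hyphae, 1 was alike higher (7.69%). This gene, SC3 (BC629DRAFT_1594598), stood at 89.0 CPM against 36.7 and 21.9 CPM, and at 279.9 CPM against 38.4 and 112 CPM. Water replicate 1 held 110.1 CPM of it, above NH4Cl replicate 3. The transcription factor list (199 tested) had 3 alike higher and 2 alike lower, a share near that of all tested genes. Its member pol5 (BC629DRAFT_1655268), a regulator of ribosomal DNA transcription in yeast, stood at 93.2 CPM against 26.2 and 31.8 CPM, and at 184 CPM against 39.9 and 49.6 CPM. BC629DRAFT_424612, without a named product, stood at 0.711 CPM against 2.67 and 2.16 CPM, and at 0.546 CPM against 3.04 and 1.79 CPM. The ATP synthase subunit d (BC629DRAFT_1527459), a mitochondrial protein, stood at 1.07 CPM against 6.25 and 5.64 CPM, and at 2.46 CPM against 8.50 and 6.13 CPM. It was the alike-lower member of 113 oxidative phosphorylation genes (0.885%), a share below that of all tested genes. On FPKM the smaller margins of isp4 (-0.89), BC629DRAFT_424612 (-0.46) and ATP synthase subunit d (-0.88) fell short of the threshold.

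**Figure D5:**
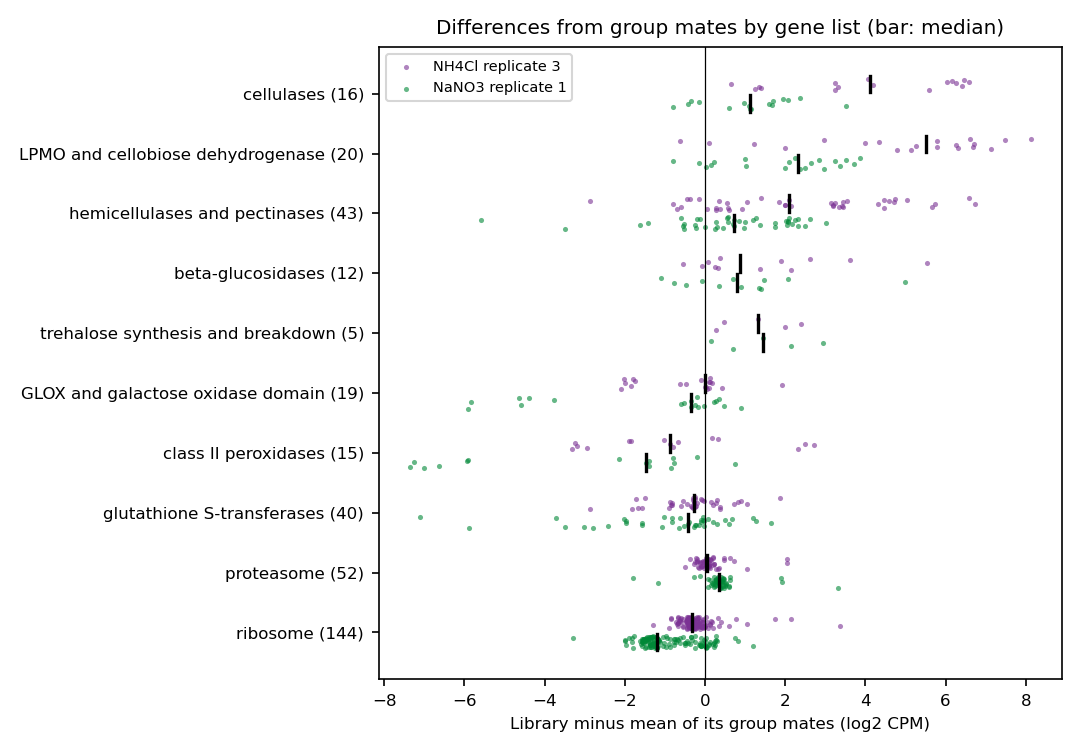
Each dot is a tested gene, placed by its log2 CPM difference from the mean of its mates, in NH4Cl replicate 3 (purple, upper) and NaNO3 replicate 1 (green, lower), for 10 gene lists with the number tested in brackets. Bars are medians; cellulases sit at 4.12 in NH4Cl replicate 3 and 1.13 in NaNO3 replicate 1, and ribosome genes at -0.33 and -1.20.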

How the data were processed

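The authors deposited 1 table of 19212 genes with whole-number counts and FPKM per library, and the tools named in the submitters' processing notes are HISAT2 and StringTie, without versions. The genome build is not given in the sources used here. The authors' own DESeq2 columns were not used. Counts were filtered with filterByExpr over the 3 labelled groups (14808 genes) and scaled by TMM in edgeR 4.0.16 (R 4.3.3). Levels are TMM-scaled CPM, compared between libraries for 1 gene and not between genes, since they are not per length. Margins and differences use log2 CPM with a prior count of 2. The deposited FPKM served the naming rule and 1 alternative. Whether the counting used strand is not stated, so overlapping and antisense genes cannot be told apart.

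No p-value was computed, because the 2 libraries were chosen by their transcripts. The libraries, the 39 gene lists (word patterns over product, domain and pathway annotation) and the rules were chosen with earlier results of these data known, 3 lists (trehalose, alcohol oxidases, phenylalanine ammonia-lyases) were added after values were seen, and the patterns were corrected after the table was seen. Genes were named by rule: outside the choosing lists, with a product name and at least 10 FPKM in 1 of the 6 libraries, the 12 alike higher, 12 alike lower and 5 opposite genes with the widest smaller margin, then 2 alike members per list, 56 in all. Further genes named in the text were chosen after their values were seen. Genes of the same product name whose ratio varied less than 2 times over the 9 libraries are given as possible copies. The calculation was run on simulated counts with no treatment difference and with changes of equal size in both chosen libraries. That run checked the calculation only and does not cover the spread between mates in these data. Alternatives were DESeq2 1.42.0 size factors, other scaling, filter, prior count and margin, FPKM, other comparison libraries and leaving out each mate. No 2 libraries were identical.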

Additional observations from a re-analysis of the deposited data

Results flagged for a closer look

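Of the 21 genes shifted in opposite directions in the 2 libraries, the 5 with a named product and the widest smaller margin are given, because each library moved away from both of its mates in the other direction; the difference between the libraries was not tested. 60S ribosomal protein L35 (BC629DRAFT_1299863) had 48.1 CPM in NH4Cl replicate 3 against 14.2 and 14.5 CPM (margin 1.73), and 6.6 CPM in NaNO3 replicate 1 against 75.6 and 56.2 CPM (margin -3.07). Its water libraries held 52.2 to 56.6 CPM, so the NH4Cl mates and NaNO3 replicate 1 were the low ones. Endo-1,4-beta-xylanase C (BC629DRAFT_1594017) had margins of 3.05 and -1.54, with 26.2 CPM against 3.07 and 2.56 CPM, and 0.319 CPM against 1.13 and 1.25 CPM. The protein argonaute gene (BC629DRAFT_1589989), which acts in small-RNA silencing, had margins of 1.18 and -1.82, at 524 CPM against 161 and 231 CPM and 34.5 CPM against 210 and 122 CPM. The hydrophobin SC4 (BC629DRAFT_1273074), a surface protein of fungal hyphae, had margins of 2.52 and -1.18, at 35.1 CPM against 6.02 and 4.16 CPM and 0.865 CPM against 2.08 and 4.53 CPM. AP-1 complex subunit gamma-1 (NewGene_3030), of vesicle transport, was the reverse, with margins of -1.43 and 1.06, at 1.37 CPM against 4.15 and 3.87 CPM and 4.05 CPM against 1.35 and 1.89 CPM. On FPKM xylanase C (margins 2.81 and -0.47) and SC4 (2.68 and -0.77) were no longer shifted in opposite directions, and the other 3 were. Against all 7 other libraries, water included, SC4 alone of the 5 was. Groups of 3 libraries are too small for a check of single outlying samples.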

How the results depend on the processing

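Counts are given as alike higher, alike lower, NH4Cl replicate 3 higher and lower, NaNO3 replicate 1 higher and lower, and opposite. With a margin of at least 2 they were 29, 51, 187, 129, 166, 327 and 6, and 20 of the 56 named genes held. With any margin above 0 they were 3466, 3414, 5810, 5492, 6110, 5850 and 2405. Against all 7 other libraries, water included, they were 70, 117, 201, 183, 397, 637 and 2, and 29 named genes held; beta-glucosidases then had 2 alike higher, trehalose genes 0, peptidases 0, P450 genes 2 higher and 0 lower, phenylalanine ammonia-lyases and O-methyltransferases 2 lower, and chaperones 0 lower. On log2(FPKM + 1), 171 genes were alike lower, 269 lower in NH4Cl replicate 3, 538 lower in NaNO3 replicate 1 and 11 opposite. With no filter on low counts 33 were opposite. The edgeR coefficient of 2 libraries against 4 with treatment as a term, at least 1 in size and of the same sign in both treatments, gave 777 higher and 855 lower genes, since it asks for no distance from each mate. Without 1 mate the ranges were 257 to 326, 307 to 401, 963 to 1047, 775 to 1132, 1231 to 1432, 1299 to 1384 and 45 to 66, since 1 mate bounds less than 2; without NH4Cl replicate 2 the transcription factor list had 6 alike higher, and without NaNO3 replicate 3 the major facilitator list had 5 and hydrophobins 2 alike higher. For these 7 counts and the named genes, DESeq2 size factors, scaling without the choosing lists, a prior count of 0.5 and leaving out genes named as new changed no count by more than 1.5 times. The coefficient gives no count for single libraries, opposite genes or named genes. Smaller margins of the 51 alike named genes were recomputed under 10 settings, 510 values in all. The settings were the 3 scaling and prior count settings, no filter, FPKM, all 7 other libraries and each mate left out. Of these values, 481 stayed past the margin, 29 fell short and 0 turned round. Of the 29, 23 were against all 7 other libraries and 6 on FPKM. Leaving out a mate can only keep or widen a margin to the nearer mate, and dropping the filter left these levels unchanged. All 51 genes had to hold in each of those settings, so those values are no check of the margins. No paired analysis was possible because the libraries were chosen by their readout and the result comes from no test. With 2 mates each, the spread behind a margin rests on 2 values, and genes near 0 counts have margins set by the prior count.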
